A study of Mus musculus with 4 samples.

Results

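The 93 potassium channel genes described here are the protein-coding genes of the count table whose symbol begins with Kcn, then lower-case letters and a digit, out of 22046 protein-coding genes and 54532 genes in all. They were measured by bulk RNA-seq in mouse cells sorted from periosteum, the sheet that covers bone. Both genotypes carried CtskCre, which recombines in cells that express cathepsin K or descend from them, and the mTmG reporter, which turns such cells GFP-positive. The mutant genotype was also Sfrp4-/-, that is, without the secreted Wnt-binding protein Sfrp4, and the other was WT for it. All mice were 4 weeks old and untreated, and long bone periosteum was sorted for cells that carried GFP and CD200 and lacked the blood and endothelial markers CD45, Ter119 and CD31 as well as CD105, 6C3 and Thy1.2. The study calls them periosteal stem cells. There were 2 Sfrp4-/- and 2 WT libraries, each from the pooled cells of 3 mice, so p-values measure the spread between pools and not between animals.

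Potassium channels let potassium leave or enter the cell along its gradient and set the resting membrane potential, which in turn governs calcium entry, cell volume and secretion. Pore-forming subunits fall into families that open with voltage, with intracellular calcium or sodium, or with little gating at all, while auxiliary subunits change how a pore opens or reaches the membrane. In people, inherited changes in several of these genes alter the skeleton and face, as in Andersen-Tawil syndrome (KCNJ2), Cantu syndrome (KCNJ8 or its partner ABCC9) and Temple-Baraitser syndrome (KCNH1).

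The libraries held 18750003 and 17341775 counts in Sfrp4-/- replicates 1 and 2, and 17119332 and 17669306 counts in WT replicates 1 and 2. Levels are given as CPM, counts per 1000000 counts in tested genes after TMM scaling, and 1 count was worth 0.0486 to 0.0667 CPM. Sfrp4 itself was at 11.4 and 12.1 CPM in Sfrp4-/- libraries, against 90.8 and 108 CPM in WT libraries, so every library follows its label (log2 fold change -3.08 ± 0.31, SE, edgeR adjusted p = 0.377). The lineage marker Ctsk was at 1461 and 1684 CPM in Sfrp4-/- and at 1055 and 2050 CPM in WT libraries. The 6 osteoclast markers, also made by cells that express Ctsk, summed to 3876 and 3577 CPM in Sfrp4-/- and 2945 and 3469 CPM in WT libraries, and the 6 osteoblast and osteocyte markers to 15350 and 11536 CPM in Sfrp4-/- and 15963 and 16290 CPM in WT libraries. Erythroid and neutrophil markers were present in all 4 libraries, the first at 739 to 2652 CPM in sum, whereas the 6 endothelial markers summed to at most 12.8 CPM. In bulk libraries fewer cells of a type and less RNA per cell cannot be told apart.

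Kcnk1 was by far the most abundant potassium channel transcript in these libraries, and most other members were scarce or not detected. Which cells in the libraries carried it was not tested. No member passed edgeR's quasi-likelihood test between genotypes (0 of 20 tested), where 0% of the 13737 tested genes passed. Of the 93 genes, 35 had 0 counts in all 4 libraries (37.6%), beside 30.6% of all protein-coding genes. A further 20 had a total of 1 to 9 counts and 38 had 10 counts or more. Only 18 had a count in every library. The filter on low counts let 20 of the 93 enter the test (21.5%), beside 12394 of the 22046 protein-coding genes (56.2%). The 73 members that were not tested had totals of at most 60 counts, and a statement about them is limited by depth. The members lie on 19 chromosomes, with the most on chromosome 2, which holds 10.

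Levels of different genes were compared per length, as CPM per kilobase of the deposited gene length. On that scale Kcnk1 was at 70.4 and 40.3 in Sfrp4-/- libraries and at 103 and 84.6 in WT libraries. It made up 69.2% and 66.8% of the summed level per length of all members in Sfrp4-/- libraries and 69.1% and 78.8% in WT libraries. Its mean level per length ranked 631 among the 12394 tested protein-coding genes. Below it came Kcnh2, Kcnma1, Kcnk6, Kcnn4 and Kcnn1, with mean levels of 4.65, 3.96, 3.52, 3.12 and 3.07 CPM per kilobase. The ranges of these 5 genes over the 4 libraries overlapped, so their order is not larger than the spread between libraries. Kcnh2, the highest of the 5, ranked 4976 among the same protein-coding genes. Kcnj8, Kcng2 and Kcnk2 followed at 1.56, 1.42 and 1.10 CPM per kilobase, and the remaining tested members had means from 0.117 to 0.868.

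**Figure D1:**
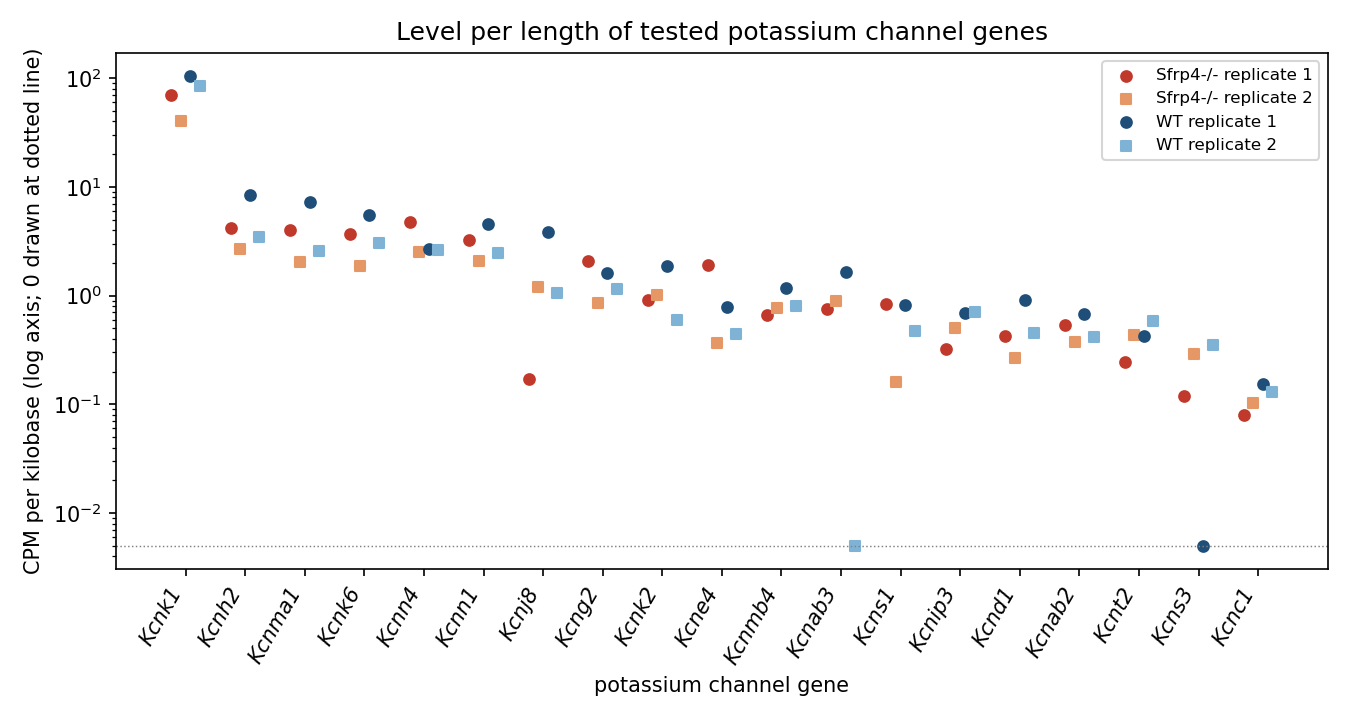
Level per length (CPM per kilobase, log axis) of 19 of the 20 tested potassium channel genes, ordered by their mean over the 4 libraries, with a point for each library. Kcnk1 lies between 40.3 and 103 in every library, and the 0 counts of Kcnab3 in WT replicate 2 and of Kcns3 in WT replicate 1 are drawn at the dotted line.

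Detection of the scarce members varied between libraries of the same genotype. Members with at least 1 count numbered 41 and 51 in Sfrp4-/- replicates 1 and 2, and 42 and 25 in WT replicates 1 and 2. The share of all protein-coding genes with a count had the same highest and lowest library, at 63.3% and 66.2% in Sfrp4-/- and 61.1% and 57.3% in WT libraries. Voltage-gated pore genes, which are best known from neurons, heart and muscle, had a count in 10 and 16 of 30 genes in Sfrp4-/- libraries and in 13 and 5 of 30 in WT libraries. Of the 15 inward rectifier genes, 4 and 6 had a count in Sfrp4-/- libraries and 4 and 1 in WT libraries. Of the 93 members, 12 had counts in Sfrp4-/- libraries and none in WT libraries, and 3 the reverse. Over the 22046 protein-coding genes these numbers were 1378 and 269.

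**Figure D2:**
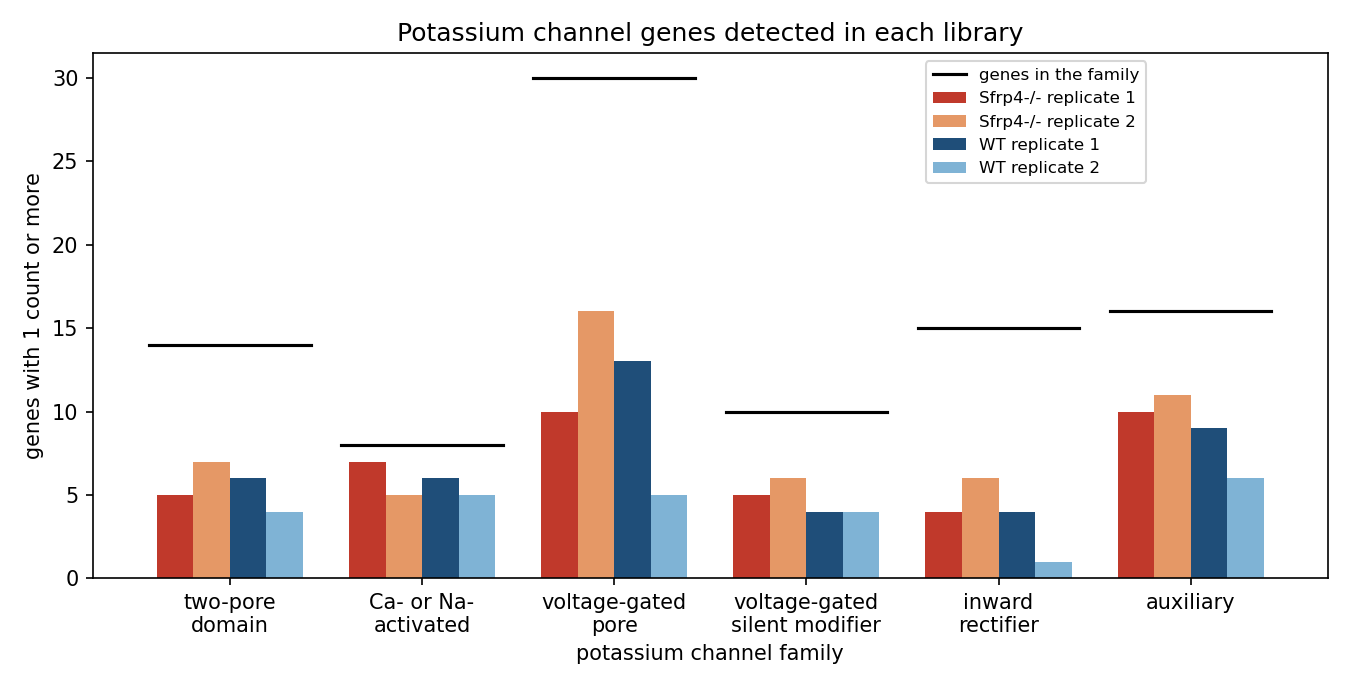
Number of potassium channel genes with 1 count or more in each library, by family, with black lines at the number of genes in the family. WT replicate 2 has the fewest or ties for the fewest in each of the 6 families, from 1 of 15 inward rectifier genes to 6 of 16 auxiliary genes.

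The tandem-pore family, whose members carry a background potassium leak, supplied most of the signal. Kcnk1 (ENSMUSG00000033998, plus strand of chromosome 8, 125995170 to 126030685, mm10) had 2916 and 1850 counts in Sfrp4-/- and 3459 and 3243 counts in WT libraries, or 157 and 90.0 CPM in Sfrp4-/- against 231 and 189 CPM in WT. Both Sfrp4-/- libraries lay below both WT libraries. The mean was 124 ± 47.7 CPM in Sfrp4-/- and 210 ± 29.4 CPM in WT libraries (SD, n = 2 each). The log2 fold change was -0.76 ± 0.37 (SE), or 0.589-fold. Log2 fold changes are Sfrp4-/- minus WT throughout. Kcnk1 did not pass edgeR's quasi-likelihood test (adjusted p = 1.00), and it had the lowest unadjusted p of all members (0.0805 with edgeR). Leaving out each library in turn gave -1.22 to -0.40.

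Kcnk6, a relative of Kcnk1 found largely in endolysosomes, was at 15.3 and 7.73 CPM in Sfrp4-/- and at 22.6 and 12.7 CPM in WT libraries (log2 fold change -0.61 ± 0.47, SE). The genotypes overlapped, since Sfrp4-/- replicate 1 lay above WT replicate 2. Kcnk2, a channel opened by membrane stretch and fatty acids, was at 4.48 and 4.96 CPM in Sfrp4-/- and at 9.27 and 2.97 CPM in WT libraries. The WT libraries enclosed both Sfrp4-/- values, and the log2 fold change of -0.37 ± 0.61 (SE) was 0.67 without WT replicate 1. Kcnk2 shares 12.2% of its exon bases with A430027H14Rik, which had 0 to 14 counts. Kcnk10, a relative of Kcnk2, had 0 and 0 counts in Sfrp4-/- and 1 and 32 counts in WT libraries. With 0 set to a floor of 3 counts for the genotype, Kcnk10 was 13.4-fold lower. Nearly all of its counts came from WT replicate 2. Kcnk13, known from microglia, had 10 and 7 counts in Sfrp4-/- and none in WT libraries, 4.66-fold higher against the same floor. In 5 of 8 macrophage markers both Sfrp4-/- libraries also lay above both WT libraries, an order found in 15.0% of all tested genes. None of the 8 was at 0 everywhere, and the list summed to 339 and 358 CPM in Sfrp4-/- and 275 and 273 CPM in WT libraries. Their part in the Kcnk13 counts was not tested. Of the other 9 tandem-pore genes, Kcnk4, Kcnk5 and Kcnk12 had totals of 1 to 13 counts, and Kcnk3, Kcnk7, Kcnk9, Kcnk15, Kcnk16 and Kcnk18 had none.

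Among the channels opened by intracellular calcium or sodium, Kcnma1, the large-conductance channel of smooth muscle and many other cells, had 68.5 and 34.7 CPM in Sfrp4-/- and 122 and 43.7 CPM in WT libraries. WT replicate 1 stood apart from the other 3 libraries. The log2 fold change of -0.68 ± 0.55 (SE) turned to 0.24 without WT replicate 1. Kcnn4, the intermediate-conductance channel through which red cells lose potassium, was at 24.03 and 12.8 CPM in Sfrp4-/- and at 13.7 and 13.4 CPM in WT libraries. Its higher mean rested on Sfrp4-/- replicate 1 (log2 fold change 0.45 ± 0.39, SE, and -0.072 without that library). In 6 of 10 erythroid markers both Sfrp4-/- libraries lay above both WT libraries, an order found in 15.0% of all tested genes. None of the 10 was at 0 everywhere. The list summed to 2074 and 2652 CPM in Sfrp4-/- and 739 and 2160 CPM in WT libraries. The part of these markers in the Kcnn4 values was not tested. Kcnn1, a small-conductance channel gated through calmodulin, was at 14.8 and 9.49 CPM in Sfrp4-/- and 20.8 and 11.2 CPM in WT libraries. The genotypes overlapped, and its log2 fold change of -0.40 ± 0.43 (SE) was 0.12 without WT replicate 1. The sodium-activated Kcnt2 had -0.58 ± 0.64. Kcnn2, Kcnn3 and Kcnu1 had totals of 6 to 29 counts, and Kcnt1 had none.

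Of the 30 voltage-gated pore genes 4 entered the test, all with log2 fold changes below 0 and none past the threshold. Kcnh2, the channel that repolarises the heart, was at 20.1 and 13.0 CPM in Sfrp4-/- and at 40.5 and 16.6 CPM in WT libraries. WT replicate 1 was the high library, and the log2 fold change of -0.79 ± 0.48 (SE) was 0.0035 without it. Kcnd1, which carries a fast inactivating current, was at 2.27 and 1.41 CPM in Sfrp4-/- and 4.8017 and 2.39 CPM in WT libraries, without overlap between genotypes (log2 fold change -0.96 ± 0.69, SE). Kcnc1, a fast channel of neurons, was at 0.756 and 0.973 CPM in Sfrp4-/- and 1.47 and 1.22 CPM in WT libraries, from 14 to 22 counts in a library. A further 14 voltage-gated pore genes had counts but were not tested, with Kcnb2 highest at a total of 22, and 12 had none, Kcna1, Kcna4 and Kcnd2 among them. Kcnh1, the gene of Temple-Baraitser syndrome in people, had 4 and 9 counts in Sfrp4-/- and 3 and 0 counts in WT libraries.

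Silent modifier subunits form no channel alone and join other voltage-gated subunits to alter their current. Kcng2 was at 6.21 and 2.53 CPM in Sfrp4-/- and at 4.8017 and 3.44 CPM in WT libraries, where the Sfrp4-/- libraries enclosed both WT values (log2 fold change 0.084 ± 0.61, SE, -0.70 without Sfrp4-/- replicate 1 and -0.14 without WT replicate 2). Kcns1 had -0.36 ± 1.03, and 0.39 without Sfrp4-/- replicate 2. Kcns3 had 7 and 19 counts in Sfrp4-/- and 0 and 19 counts in WT libraries (0.22 ± 1.71). Kcnf1, Kcng1 and Kcng4 had totals of 12 to 26 counts, and Kcng3, Kcns2, Kcnv1 and Kcnv2 had none.

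A single inward rectifier gene entered the test. Kcnj8, the pore of the ATP-sensitive channel of pericytes and vascular muscle, had 8 and 63 counts in Sfrp4-/- and 146 and 46 counts in WT libraries, or 0.432 and 3.06 CPM in Sfrp4-/- against 9.74 and 2.68 CPM in WT. It had the lowest log2 fold change of the tested members, -1.82 ± 1.00 (SE), but Sfrp4-/- replicate 2 lay above WT replicate 2, and leaving out each library gave -3.81 to -0.61. Its regulatory partner Abcc9 was at 5.45 and 3.45 CPM in Sfrp4-/- and at 11.5 and 3.44 CPM in WT libraries (-0.75 ± 0.64). The pericyte gene Rgs5 had 7 and 45 counts in Sfrp4-/- and 105 and 30 counts in WT libraries, and ranked the 4 libraries in the same order as Kcnj8. Other markers of mural cells did not share that order: Acta2 was at 27.3 and 39.4 CPM in Sfrp4-/- and 12.4 and 28.2 CPM in WT libraries, Cspg4 at 25.6 and 9.24 CPM in Sfrp4-/- and 42.1 and 22.6 CPM in WT libraries, and Notch3 at 1.94 and 0.535 CPM in Sfrp4-/- and 0.734 and 0.408 CPM in WT libraries. The 6 mural markers, Rgs5 included, summed to 55.8 and 51.6 CPM in Sfrp4-/- and 64.5 and 52.9 CPM in WT libraries, with 0 of 6 at 0 everywhere and 0 of 6 without overlap between genotypes. The part of mural cells in the Kcnj8 values was not tested. Kcnj2, the gene of Andersen-Tawil syndrome in people, had 1 and 12 counts in Sfrp4-/- and 6 and 0 counts in WT libraries. Another 5 inward rectifier genes had totals of 1 to 9 counts, and 8 had none, Kcnj1, Kcnj10 and Kcnj16 among them.

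Auxiliary subunits were scarce and mixed in direction. Kcne4, which inhibits voltage-gated channels, was at 5.02 and 0.973 CPM in Sfrp4-/- and at 2.07 and 1.17 CPM in WT libraries. Only Sfrp4-/- replicate 1 was high, and the log2 fold change of 0.89 ± 0.93 (SE) was -0.73 without it. Kcnmb4, a beta subunit that slows the Kcnma1 channel, was at 2.21 and 2.53 CPM in Sfrp4-/- and 3.87 and 2.68 CPM in WT libraries (-0.46 ± 0.61). Kcnip3, a calcium sensor that binds channels of the Kcnd family, was at 1.13 and 1.80 CPM in Sfrp4-/- and 2.47 and 2.51 CPM in WT libraries (-0.76 ± 0.74). In both genes the Sfrp4-/- libraries lay below the WT libraries, though Kcnmb4 shares 31.5% of its exon bases with antisense genes, the libraries do not record strand, and with library totals alone its genotypes overlapped. Kcnab2, a beta subunit with an oxidoreductase fold, had -0.28 ± 0.64, and 0.12 without WT replicate 1. Its relative Kcnab3 had 40 and 53 counts in Sfrp4-/- and 71 and 0 counts in WT libraries (0.0082 ± 1.54), so that the WT libraries enclosed both Sfrp4-/- values. Kcnmb2 had 7 and 3 counts in Sfrp4-/- and none in WT libraries, 2.74-fold higher against the floor. The remaining 10 auxiliary genes had totals of 0 to 60 counts.

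Counted over families, 0 of the 20 tested members passed edgeR's quasi-likelihood test with Benjamini-Hochberg adjustment over all 13737 genes tested. At an unadjusted p under 0.05 the members again numbered 0, beside 194 higher (1.41%) and 97 lower (0.706%) genes over all 13737. With library totals in place of TMM that split was 373 and 30, and the members stayed at 0. DESeq2, run without the filter on 21751 genes, called 7 genes and 0 of 58 members. At an unadjusted p under 0.05 it had 3 of the 58 lower (Kcnk1, Kcnj8 and Kcnk10), where 0.722% of its genes were, and edgeR without the filter had 4 of 58 lower (the same 3 and Kcnh2), where 1.13% were; neither had a member higher. Of the 20 log2 fold changes 15 were below 0 and 5 above, with a median of -0.52, beside a median of 0.0031 over all tested genes. Both Sfrp4-/- libraries lay below both WT libraries in 6 of the 20, Kcnk1, Kcnd1, Kcnc1, Kcnmb4 and Kcnip3 among them, where 12.6% of all tested genes did so. They lay above in 0 of the 20, where 15.0% of all tested genes did so. Members that passed the filter do not stand for all 93, and the balance rested in part on WT replicate 1: without it the same 20 genes had 10 log2 fold changes above and 10 below 0, with a median of -0.065.

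**Figure D3:**
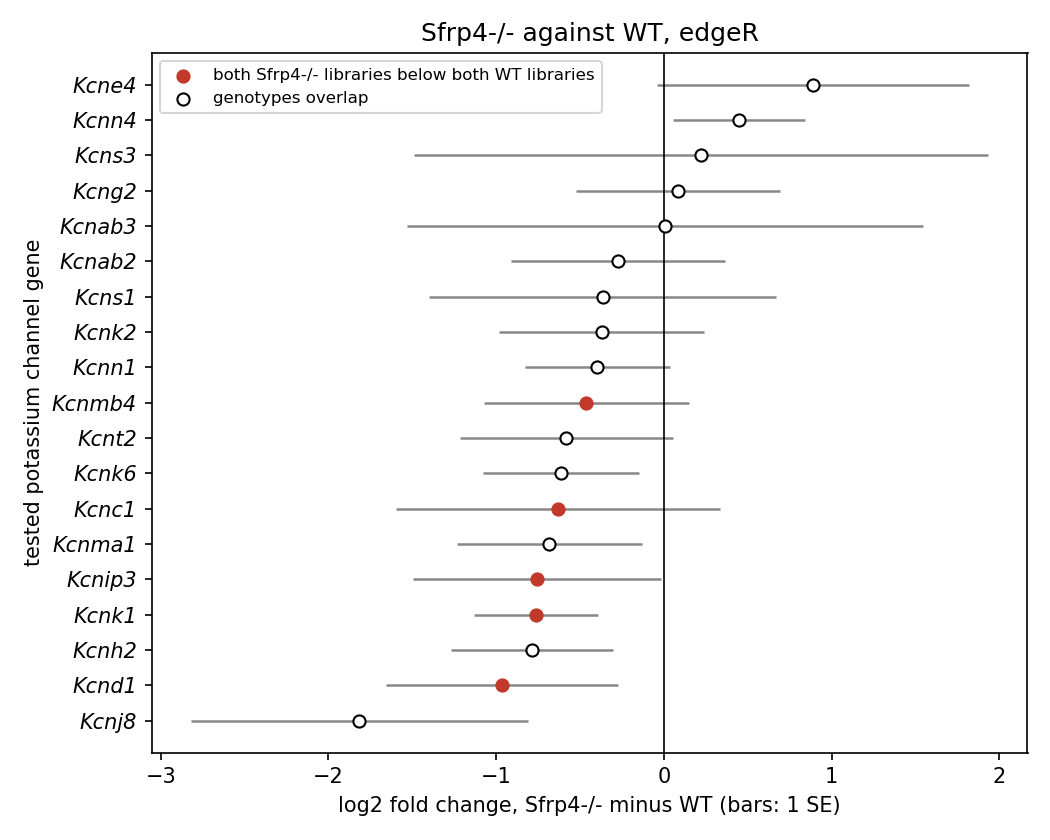
Log2 fold change (Sfrp4-/- minus WT, edgeR, bars 1 SE) of 19 of the 20 tested potassium channel genes. Red points mark the 5 of these in which both Sfrp4-/- libraries lay below both WT libraries; 14 of 19 points lie left of 0 and none passed the test.

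The channel genes also differed between libraries of a genotype. In 12 of the 20 tested members replicate 1 was above replicate 2 in both genotypes (60%), beside 32.8% of all tested genes. The reverse held for 3 members (15.0%), beside 31.2% of all tested genes. On the log2(CPM + 0.5) scale the median difference of replicate 2 minus replicate 1 over the members was -0.51 in Sfrp4-/- and -0.60 in WT libraries, and over all tested genes 0.0044 in Sfrp4-/- and -0.035 in WT libraries. The sum of the 6 periosteal lineage markers, carried mostly by Col1a1, had the same order. It was 67319 and 29558 CPM in Sfrp4-/- and 111850 and 38514 CPM in WT libraries. Postn and Pdgfra shared this order, Prrx1 did so in WT libraries alone, and Ctsk and Cd200 had the reverse in both genotypes. The 6 chondrocyte markers in sum also had replicate 1 higher, at 163 and 66.4 CPM in Sfrp4-/- and 452 and 101 CPM in WT libraries. The part of these markers in the channel values was not tested.

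**Figure D4:**
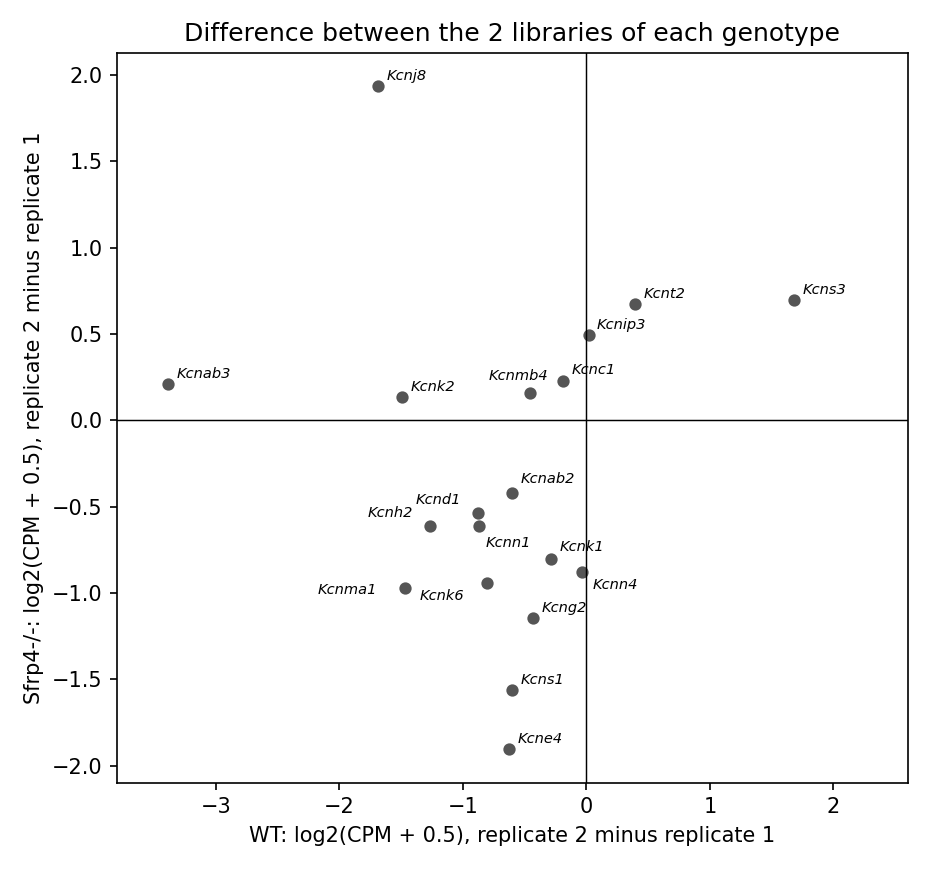
Difference between the 2 libraries of each genotype (replicate 2 minus replicate 1 on the log2(CPM + 0.5) scale) for 19 of the 20 tested potassium channel genes, Sfrp4-/- on the vertical and WT on the horizontal axis. The lower left field, where replicate 1 is higher in both genotypes, holds 11 genes, and Kcnj8, at the upper left, has the highest Sfrp4-/- difference.

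Other genes that move potassium or work beside these channels were read from lists chosen from textbook roles. None of their tested genes passed the edgeR test. Of 22 genes of the sodium pump and the cation chloride cotransporters 12 were tested, 5 above and 7 below 0, with a median log2 fold change of -0.53. Atp1b3, a beta subunit of the pump that restores the potassium gradient, was at 699 and 454 CPM in Sfrp4-/- and 1263 and 892 CPM in WT libraries (-0.90 ± 0.39, SE). The beta subunit Atp1b1 lay on the other side, at 4.59 and 3.75 CPM in Sfrp4-/- and 0.867 and 1.22 CPM in WT libraries (1.98 ± 0.66). In both genes, named for the lowest unadjusted p of the list, the genotypes did not overlap. Of the 12 tested, 2 had both Sfrp4-/- libraries above both WT libraries and 3 had them below. Over all tested genes the shares were 15.0% and 12.6%. Of 17 channel partners and other potassium-conducting channels 6 were tested, 1 above and 5 below 0 (median -0.34). Tmem38b, an endoplasmic reticulum potassium channel whose loss causes brittle bones in people, was at 12.8 and 14.1 CPM in Sfrp4-/- and 14.8 and 22.5 CPM in WT libraries (-0.47 ± 0.35). The lysosomal channel Tmem175 was at 28.2 and 15.5 CPM in Sfrp4-/- and 23.8 and 22.6 CPM in WT libraries.

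Regulators and anchors of channels had 15 of 18 genes tested, 10 above and 5 below 0 (median 0.085). Calm2, a calmodulin gene, was the most abundant at 1939 and 2483 CPM in Sfrp4-/- and 1700 and 2163 CPM in WT libraries, while the kinase gene Oxsr1 and the scaffold gene Dlg1 had log2 fold changes of 0.67 ± 0.43 and -0.44 ± 0.34. Calcium entry and mechanosensitive channels had 19 of 29 genes tested, 7 above and 12 below 0 (median -0.11). Trpv2, a calcium-permeable channel, was at 11.3 and 9.63 CPM in Sfrp4-/- and 7.34 and 3.09 CPM in WT libraries (1.01 ± 0.50). Trpc1 had 2.69 ± 1.16 at levels of 0.175 to 2.32 CPM, and the calcium channel subunit Cacnb3 -0.62 ± 0.32. Chloride and anion channels had 19 of 21 genes tested, 4 above and 15 below 0 (median -0.43). The exchangers Clcn4 and Clcn5, named for the lowest unadjusted p of the list, had -0.60 ± 0.41 and -1.09 ± 0.68, each without overlap between genotypes. Of the 19 tested, 1 had both Sfrp4-/- libraries above both WT libraries and 4 had them below. Over all tested genes the shares were 15.0% and 12.6%.

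Promoter windows were compared because the members range from abundant to undetected. RefSeq windows of 300 bases (250 before and 50 after the most upstream listed start, GRCm38.p6) were matched by symbol to 68 of the 93 members. The 15 tested members had a median of 12 CpG sites in the window, the 27 with counts that were not tested 9, and the 26 with 0 counts 13.5, beside 7 over 27025 genes. Those 27025 genes were not limited to protein-coding genes, whereas all members are protein-coding. The 3 groups of members overlapped widely, from 6 to 48, 2 to 37 and 0 to 49 sites. The windows of Kcnk1, Kcnn4 and Kcng3 are shown for the span of CpG content among abundant and undetected members. Kcnk1, the most abundant member, had 10 CpG sites, the median of the 68. Kcnn4 had 6, with Kcnk2 the fewest of the 15 tested members with a window. Kcng3, with 0 counts in every library, had 49, the most of the 68. They lie at chr8:125994852-125995151 (plus strand), chr7:24370013-24370312 (plus strand) and chr17:83631846-83632145 (minus strand). The start listed for Kcnk1 is at -68 bases from the deposited gene start. Capitals mark CpG sites.
Kcnk1: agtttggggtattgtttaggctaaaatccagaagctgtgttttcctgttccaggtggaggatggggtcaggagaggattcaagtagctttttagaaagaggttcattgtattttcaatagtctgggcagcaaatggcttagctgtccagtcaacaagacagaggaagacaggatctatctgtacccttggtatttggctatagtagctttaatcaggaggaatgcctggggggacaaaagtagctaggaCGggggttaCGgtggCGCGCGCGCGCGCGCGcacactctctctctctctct
Kcnn4: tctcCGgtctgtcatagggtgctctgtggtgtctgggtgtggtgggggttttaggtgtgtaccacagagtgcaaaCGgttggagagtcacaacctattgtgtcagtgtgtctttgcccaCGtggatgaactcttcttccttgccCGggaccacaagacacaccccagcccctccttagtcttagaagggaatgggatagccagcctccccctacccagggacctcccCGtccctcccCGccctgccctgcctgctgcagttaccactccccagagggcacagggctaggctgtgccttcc
Kcng3: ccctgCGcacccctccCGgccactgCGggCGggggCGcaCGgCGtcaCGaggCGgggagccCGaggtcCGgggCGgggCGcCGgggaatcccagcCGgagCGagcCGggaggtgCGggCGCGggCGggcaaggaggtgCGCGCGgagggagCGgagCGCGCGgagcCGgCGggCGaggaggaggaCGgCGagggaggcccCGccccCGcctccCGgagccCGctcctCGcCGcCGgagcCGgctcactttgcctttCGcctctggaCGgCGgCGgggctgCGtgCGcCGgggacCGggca
The CpG sites of Kcnk1 sit near the start in a run of CG repeats, whereas those of Kcng3 fill the window. The letters CTTTGAT, a core bound by the TCF and LEF factors of the Wnt pathway, were searched on both strands and were found in 2 of the 68 windows (2.94%), those of Kcnk2 and Kcne4, beside 3.76% of all 27025 windows. The letters TATAAA, the core of the TATA box, were searched only as the windows are written, not on both strands. They were also found in 2 windows (2.94%), both of members with 0 counts, beside 8.88% of all windows.

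**Figure D5:**
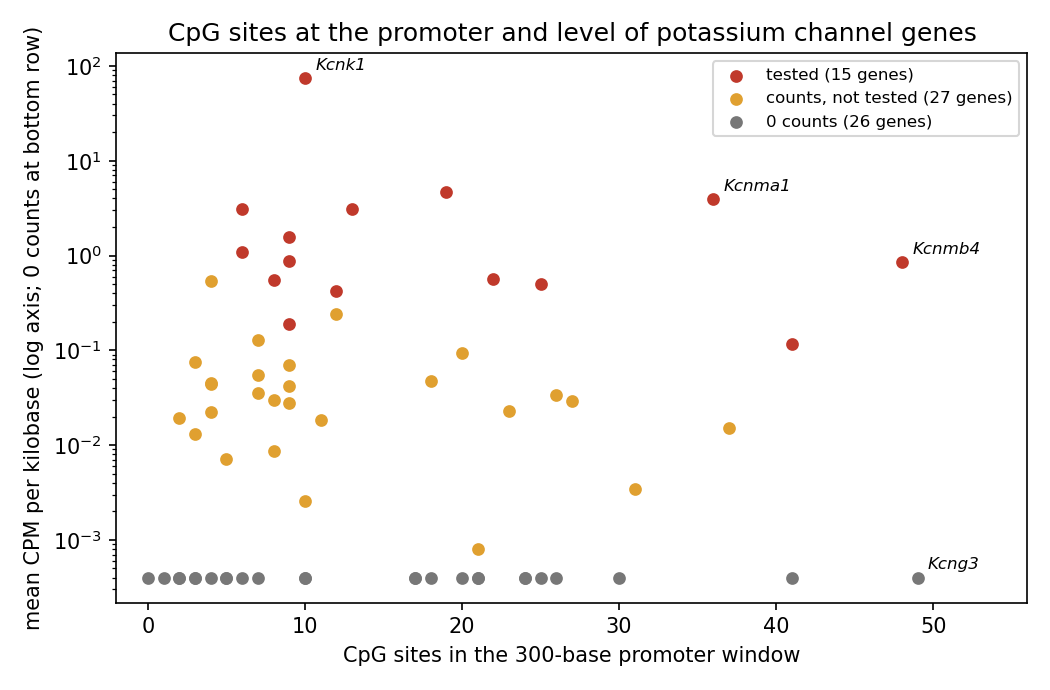
CpG sites in the 300-base promoter window against mean level per length (CPM per kilobase, log axis) for the 68 potassium channel genes with a window. Genes with 0 counts stand in the bottom row, spread from 0 to 49 sites, and Kcnk1 stands highest at 10 sites.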

How the data were processed

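The deposited table of the authors holds raw counts for each gene in 4 libraries, not normalized, with gene coordinates, length and biotype. Per the labels' protocols the libraries were ultra-low-input SMARTer mRNA libraries without strand. Per the submitters' processing notes, the tools were DESeq2 1.20.0, featureCounts 1.00-p3, HISAT2 2.0.5 and CASAVA, with build mm10. Their roles, and the release of the annotation, were not given in the sources used here. Amplification of little RNA can lose scarce transcripts in single libraries.

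No 2 libraries agreed within sampling noise (chi-square over its degrees of freedom, 51.7 to 229.5). The lowest values were those of same-numbered libraries of opposite genotype, 51.7 for replicate 1 and 61.1 for replicate 2. The 2 libraries of a genotype gave 133 in Sfrp4-/- and 163 in WT. Sfrp4-/- replicate 1 with WT replicate 2 gave 84, and Sfrp4-/- replicate 2 with WT replicate 1 gave 229.5. The test was edgeR 4.0.16 in R 4.3.3 (filterByExpr, TMM, glmQLFit and glmQLFTest, genotype only, Benjamini-Hochberg over 13737 genes, threshold 0.05, two-sided). The common dispersion was 0.173. SE is the absolute log2 fold change over the square root of F. Floors of 3 counts cover only the counting error of the genotype at 0, not that of the other genotype or the spread between pools. The edgeR fit was checked on simulated data. The alternatives were DESeq2 1.42.0, RLE scaling or plain library totals in place of TMM, a stricter filter (5 CPM in 2 libraries) or none, a block for the replicate number, and fits that omit each library in turn. Figures were drawn with matplotlib 3.10.9.

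The members and lists were chosen with earlier results of these data known. Every member may be named; values in every library are given for members with a mean of at least 5 CPM, the 5 with the lowest unadjusted p in each direction, those with 0 counts in a genotype and at least 10 in the other, and the highest per length of each family. Other values by library were chosen after they were seen. A tested member is counted but not reported here by name, nor drawn. In the other lists the 2 lowest p and the highest level were named. All 93 members were found in GENCODE M21, 89 with the same coordinates, and 15 share over 5% of exon bases with another gene.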

Additional observations from a re-analysis of the deposited data

How the results depend on the processing

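No potassium channel gene passed under any of the 10 alternatives. Among the alternatives that kept all 4 libraries, the lowest edgeR adjusted p was 0.721, for Kcnk1 with the replicate number as a block. Fits that omit a library take the spread of the remaining one from the other genotype. The number of genes passing over all genes was 20 with edgeR and 7 with DESeq2, both without a filter on low counts (21751 genes), 1 with the replicate number as a block and 2 to 7 with a library left out. Sfrp4 did not pass as reported (log2 fold change -3.08 ± 0.31, SE, edgeR adjusted p = 0.377) and passed without the filter (-3.08), with DESeq2 (-3.09), with the block (-3.07) and with each library left out (-3.19 to -2.96). The replicate numbers are not stated to pair the libraries. Deviations of same-numbered libraries correlated at 0.256 over 13737 genes. The block turned Kcng2 to -0.0285, and at an unadjusted p under 0.05 it had 3 of 20 members lower (Kcnk1, Kcnma1 and Kcnh2) and 0 higher, where over all genes 3.37% were lower (463) and 2.92% higher (401). With a library left out a genotype keeps a lone library, and members at that threshold are not counted for those fits.

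The median log2 fold change of the members tested was -0.75 to -0.13 with a library left out (25 to 27 members), -0.77 to -0.065 over the same 20. Library totals alone gave -0.27 over the members and moved the median of all genes to 0.24. With library totals alone, both Sfrp4-/- libraries lay above both WT libraries in 1 of 20 members (Kcnn4), where 27.1% of all genes did so. They lay below in 5 of 20, where 5.2% of all genes did so. With RLE scaling 0 of 20 members lay above and 7 below, and the shares over all genes were not computed. The median log2 fold change of the members was then -0.54. Without a filter 10 of 58 members lay above and 8 below, beside 15.6% and 9.21% of all genes. With at least 5 CPM in 2 libraries 1 of 6 lay below, beside 13.8%. With a library left out, a lone library is easier to clear: 0 to 4 of 20 lay above and 8 to 15 below, beside 26.8% to 37.3% and 24% to 35.9% of all genes. DESeq2 turned Kcnab3 to -0.011. With a library left out, log2 fold changes crossed 0 in 11 of the 20 tested members: Kcnab2 (-0.59 to 0.12), Kcnab3 (-1.004 to 8.48), Kcne4 (-0.73 to 1.64), Kcng2 (-0.70 to 0.60), Kcnh2 (-1.30 to 0.0035), Kcnk2 (-0.98 to 0.67), Kcnma1 (-1.25 to 0.24), Kcnn1 (-0.78 to 0.12), Kcnn4 (-0.072 to 0.84), Kcns1 (-1.97 to 0.39) and Kcns3 (-0.75 to 6.57). The highest values of Kcnab3 and Kcns3 were fitted against a lone WT library at 0 counts and are no estimate of size. The causes were not tested.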

Other observations

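Several members below the filter had unequal totals, given here with 95% exact binomial intervals that cover counting error only and not the spread between pools. Kcne3, an auxiliary subunit of epithelial channels, had 8 and 2 counts in Sfrp4-/- and 50 and 0 counts in WT libraries, a ratio of 0.165 (0.0744 to 0.328). Kcnip4, a calcium sensor, had 3 and 0 counts in Sfrp4-/- and 7 and 21 counts in WT libraries (0.0881, 0.0172 to 0.285). Kcnu1, known from sperm, had 6 and 0 counts in Sfrp4-/- and 0 and 23 counts in WT libraries (0.215, 0.0715 to 0.542). Kcne1l, which the deposited description calls a pseudogene, had 20 and 6 counts in Sfrp4-/- and 2 and 0 counts in WT libraries (10.7, 2.68 to 93.0). Kcnip4 shares 7.36% of its exon bases with 5730480H06Rik, which had 218 to 459 counts. For Kcne3 and Kcnu1 the counts of the higher genotype came from a single library.

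The noncoding Kcnq1ot1, antisense to Kcnq1 and outside the rule on biotype, had 39 and 372 counts in Sfrp4-/- and 46 and 220 counts in WT libraries, higher in replicate 2 of both genotypes. Kcnq1 itself had 0 and 0 counts in Sfrp4-/- and 2 and 0 counts in WT libraries.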
